A study of Mus musculus with 222 samples.

Results

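Among 214 arrays of mammary tumors from MMTV-ErbB2 mice, 4 carried less of the transcript of the oncogene meant to drive them than any of the others. They were chosen by the deposited log2 value of the Erbb2 probe set (the gene lies at chr11:98412484-98437716, GRCm38.p6): every tumor array under 11 was taken as low, and the other 210 as high. The members were 092T1 at 8.32, 168T1 at 9.32, F1_26T1 at 9.72 and 076T1 at 10.31. The threshold fell in a gap, since the highest low tumor stood at 10.31 and the lowest of the others at 11.73. These Erbb2 values chose the tumors and are a description only, so Erbb2 was given no test and was left out of every count below.

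The study crossed a tumor-prone and a tumor-resistant mouse strain to obtain ERBB2-positive breast cancers that differ in their course, and profiled spontaneous tumors and 8 normal mammary glands on 222 Affymetrix arrays. The names of 2 tumor arrays end in R and otherwise equal those of another array, so the 214 arrays may hold fewer than 214 tumors; neither is a low tumor. All tumors came from mice with the MMTV-ErbB2 transgene, in which the mouse mammary tumor virus promoter drives ErbB2 in the mammary epithelium. Of the tumor arrays, 26 came from FVB/N mice (FVB), 28 from F1 mice (C57BL/6 males crossed to transgenic FVB females) and 160 from the backcross (F1BX) of transgenic F1 males to FVB females without the transgene. The glands were 3 FVB and 2 F1 glands with MMTV-ErbB2 and 3 wild type F1 glands. The low tumors 092T1, 168T1 and 076T1 were F1BX and F1_26T1 was F1, and each was the only array of its mouse. The labels give no ages, and nothing read here states how the gland tissue was taken. The probe set is assigned to the mouse gene, so the transcripts of the transgene and of the endogenous gene cannot be told apart.

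ERBB2 (HER2, NEU) is a receptor tyrosine kinase with no known ligand of its own. It signals as a partner of EGFR, ERBB3 and ERBB4, which bind ligands of the EGF and neuregulin families, and its signal runs through the RAS, ERK, PI3K and AKT pathways. The mammary ducts that give rise to such tumors have an inner layer of luminal cells, which are held together by E-cadherin and carry keratins 8 and 18, and an outer basal layer with keratins 5 and 14. Mammary tumors that lose a driving oncogene are known to take on other cell states, among them a mesenchymal one, in which cadherin and keratin programs give way to vimentin and the ZEB, SNAI and TWIST transcription factors.

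The arrays fell into 2 sets by the spread of their values. The interquartile range of a column was 2.33 to 2.62 in a narrow set with 23 of the other tumors, and 3.04 to 3.35 in a wide set with the remaining 187; the low tumors 092T1, F1_26T1 and 076T1 and all 8 glands lay in the narrow set and 168T1 in the wide one. Nothing in the labels or methods states what made the sets. Among tumors, each low tumor was therefore compared only with the others of its own set. All glands are narrow-set arrays, so the values of 168T1 beside those of the glands cross the sets and carry that difference in spread (its interquartile range was 3.25, and 1.86 to 2.36 in the glands). The Pearson correlation of a tumor with the median profile of its set was 0.940 for 092T1 and 0.940 for 168T1, below every other tumor of their sets (0.975 to 0.992 narrow, 0.961 to 0.994 wide). It was 0.969 for F1_26T1 and 0.974 for 076T1, also below every other narrow-set tumor, for 076T1 by a small margin. One gland, FVB MMTV-ErbB2 replicate 3, stood apart from the other 7 (0.75 against 0.906 to 0.931 with the median of the narrow-set tumors), and results that rest on the glands are given with and without it.

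Against the median of the other tumors of its set, Erbb2 was 15.9-fold lower in 092T1, 8.59-fold in 168T1, 6.04-fold in F1_26T1 and 3.99-fold in 076T1. The other narrow-set tumors ran from 11.75 to 12.60 (median 12.31) and the other wide-set tumors from 11.73 to 12.86 (median 12.43). The glands ran from 8.26 to 10.48 (median 9.41), and all 4 low tumors lay inside that range. This range joins wild type glands, at 8.26 to 8.35, and glands with MMTV-ErbB2, at 9.05 to 10.48. 092T1 lay among the wild type glands and below every gland with the transgene. The other low tumors lay within the range of the glands with the transgene. The gene given as a second marker of these tumors, Tc2n (chr12:101645446-101718919), a C2-domain protein, had the same layout. It read 5.37 in 092T1, 7.99 in F1_26T1 and 8.72 in 076T1 against 10.93 to 13.01 (median 12.30) in the other narrow-set tumors, and 5.28 in 168T1 against 10.68 to 12.63 (median 11.92) in the wide set. The glands held 5.59 to 8.24, so that 076T1 lay above all of them, 092T1 and 168T1 below, and no low tumor reached the other tumors. Tc2n was named with this pattern in view, so no test result is printed for it. Unlike Erbb2, it was not left out of the counts below. It is among the lower calls, the genes with the largest called changes and the genes most raised in tumors, and is no support there.

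**Figure D1:**
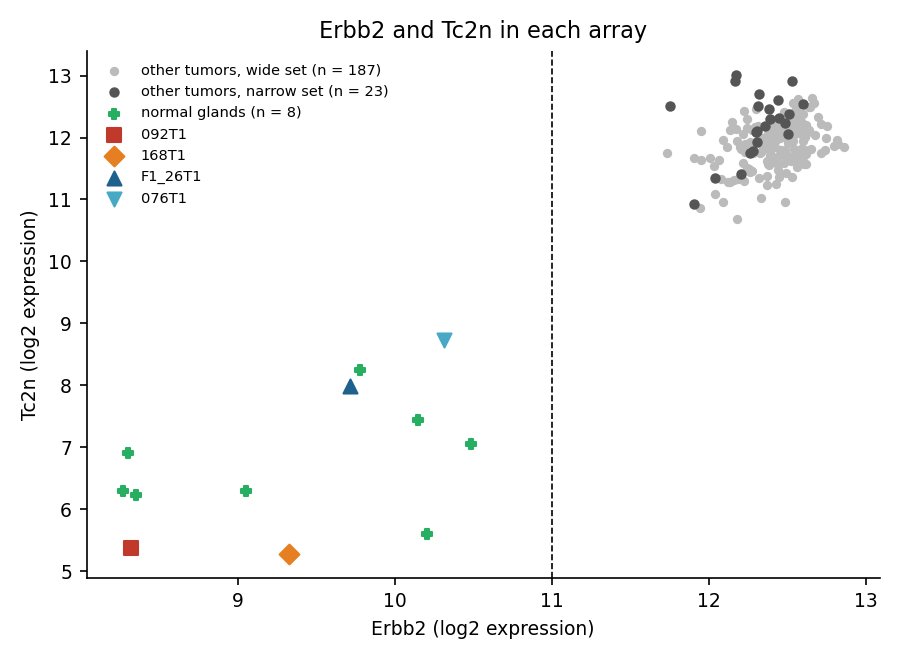
Log2 expression of Erbb2 (horizontal) and Tc2n (vertical), 1 point per array, for glands, narrow-set and wide-set tumors and the 4 low tumors by name; the dashed line marks the threshold of 11. The low tumors sit between 8.32 and 10.31 for Erbb2, inside the gland range of 8.26 to 10.48, and below the other tumors, the lowest of which is at 11.73.

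The distance from the other tumors was not the same in the 4. A probe set was called past the range in a tumor when its value lay above the highest or below the lowest of the other tumors of its set and at least 4-fold from their median; with 1 array there is no test. Of 35555 probe sets, 443 (1.25%) were past the range higher and 403 (1.13%) lower in 092T1. In 168T1 the counts were 402 (1.13%) and 519 (1.46%). In F1_26T1 they were 173 (0.487%) and 106 (0.298%), and in 076T1 100 (0.281%) and 78 (0.219%). The 4 sums were 846, 921, 279 and 178, against 0 to 160 (median 30) for the other narrow-set tumors and 0 to 316 (median 8) for the wide-set ones, each set against the rest in the same way. Each low tumor exceeded every other tumor of its set, 076T1 by the least. The ranges rest on 23 tumors for the narrow set and 187 for 168T1, so the counts of the 2 sets are not directly comparable.

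**Figure D2:**
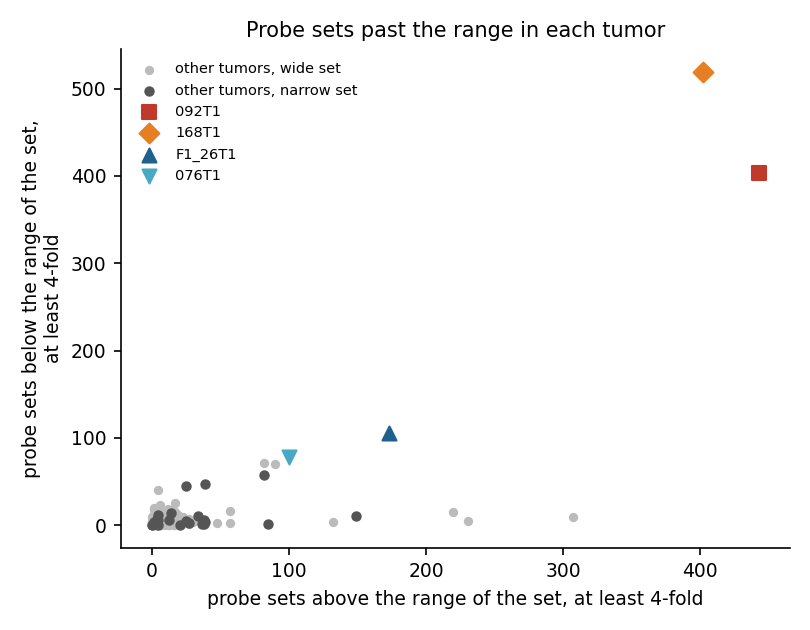
Number of probe sets above (horizontal) and below (vertical) the range of the tumor's own set and at least 4-fold from its median, 1 point per tumor. 092T1 (443 and 403) and 168T1 (402 and 519) lie far from the other tumors, and F1_26T1 (173 and 106) and 076T1 (100 and 78) nearer to them.

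The narrow-set low tumors share their controls, and their own values are set side by side below. 168T1 was compared with other arrays, so its differences can be set against theirs. Across probe sets, which are not independent replicates, the difference from the set median in 168T1 had a Pearson correlation of 0.61 with that in 092T1, 0.29 with that in F1_26T1 and 0.29 with that in 076T1. Of the probe sets past the range lower in 092T1, 246 were also lower in 168T1 (61% of the list of 092T1 and 47.4% of that of 168T1), and 122 of the higher ones were higher in both (27.5% and 30.3%). For F1_26T1 the shared probe sets were 59 lower (55.7% of its list, 11.4% of that of 168T1) and 18 higher (10.4% and 4.48%), and 8 of its higher ones were lower in 168T1. For 076T1 they were 46 lower (59% and 8.86%) and 13 higher (13% and 3.23%). In each narrow-set tumor a larger share of the losses than of the gains recurred in 168T1. Over all probe sets 1.46% were past the range lower in 168T1 and 1.13% higher. What made the shares differ was not tested.

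**Figure D3:**
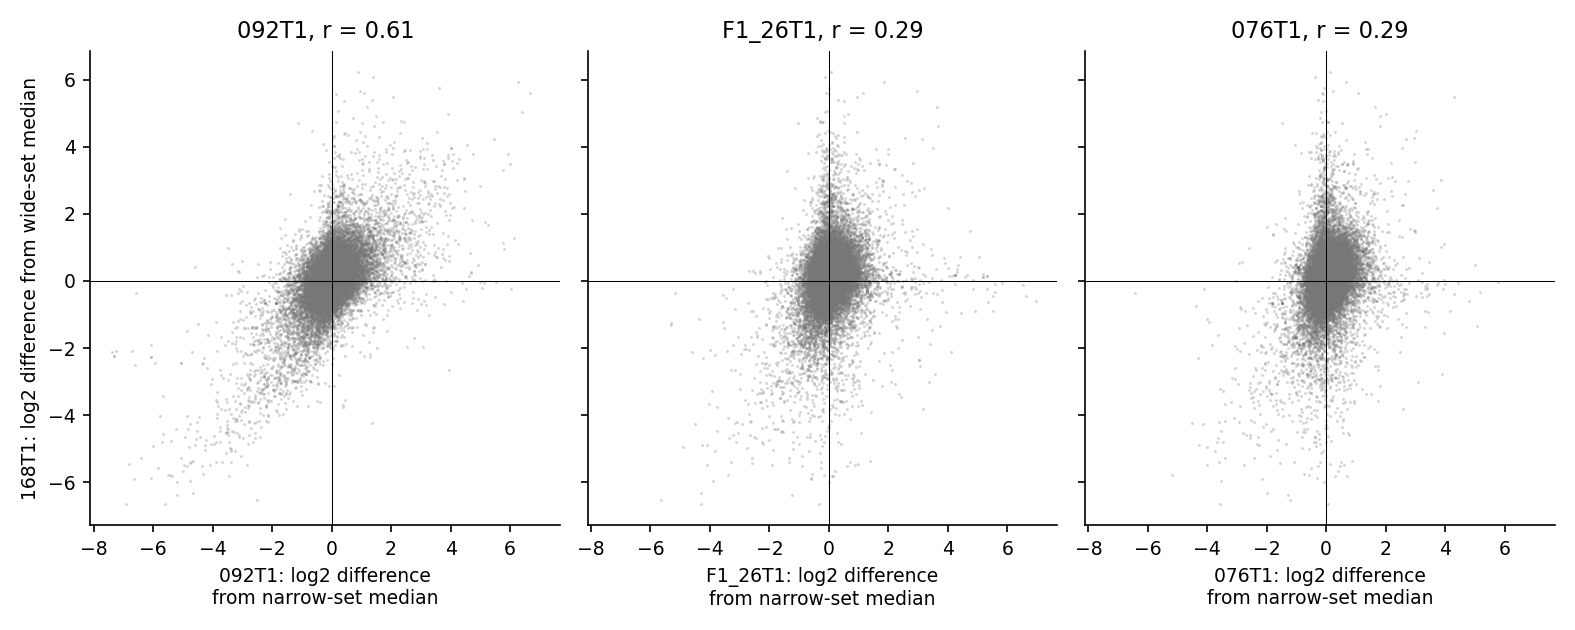
Difference of each probe set from the median of the other tumors of its set, in log2, for 092T1, F1_26T1 and 076T1 (horizontal, 1 panel each) against 168T1 (vertical). The cloud is elongated along the diagonal for 092T1 (Pearson r 0.61) and less so for the others (0.29 and 0.29).

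One pair of tumors, 092T1 and 168T1, had low values of genes of the luminal epithelium and high values of mesenchymal genes. In both, 12 of the 17 measured luminal epithelial genes were past the range lower, and the median difference of the list was -2.77 in 092T1 and -3.39 in 168T1, while the other tumors ran from -0.61 to 0.30 in the narrow set and from -0.59 to 0.52 in the wide set. Epcam, an epithelial adhesion molecule (chr17:87635979-87651127), read 6.39 in 092T1 and 6.49 in 168T1. All other tumors lay between 11.83 and 12.68, and F1_26T1 and 076T1 read 11.90 and 12.17, just under the narrow-set range of 12.23 to 12.68. Cdh1, which encodes E-cadherin, read 7.42 in 092T1 and 6.80 in 168T1 against at least 9.51 in any other tumor. The transcription factor Ehf read 6.75 and 5.90 against at least 10.16, and Esrp1, which directs epithelial splicing, 6.12 and 5.67 against at least 10.10. F1_26T1 and 076T1 stood apart from this pair, since none of the 17 genes was past the range lower in either. Not all luminal genes were low in the pair: Krt8 read 12.23 and 12.88 and lay within the range of the other tumors of each set (11.91 to 12.83 narrow, 11.92 to 13.43 wide), and Krt18 read 12.66 in 168T1, within its set, and 10.79 in 092T1, below the 11.43 to 12.74 of its set but less than 4-fold from the median. By these defining markers 092T1 and 168T1 kept keratin 8 but had Epcam and Cdh1 below all 8 glands, where Epcam was 10.41 to 12.49 and Cdh1 9.06 to 11.95.

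Of the luminal epithelial genes past the range lower in both tumors, 7 were in a table of promoter sequences, and 5 of these promoters are shown to set 4 that hold a certain motif at least 2 times beside Spint1, which lacks it. The sequences are from RefSeq (GRCm38.p6), run from 250 bases before to 50 after a transcript start, and are given 5′ to 3′ on the strand of the gene. Capitals mark the E-box CAGGTG or its reverse complement CACCTG, the motif by which factors of the ZEB and SNAI families are known to bind DNA. Epcam lies at chr17:87635729-87636028 (plus strand), Cldn7, a tight junction claudin, at chr11:69965171-69965470 (plus strand; a second window of this gene has no such motif), Rab25, an epithelial trafficking GTPase, at chr3:88548230-88548529 (minus strand), Spint2, a membrane inhibitor of serine proteases, at chr7:29281928-29282227 (minus strand), and Spint1, a related inhibitor, at chr2:119237110-119237409 (plus strand).
Epcam: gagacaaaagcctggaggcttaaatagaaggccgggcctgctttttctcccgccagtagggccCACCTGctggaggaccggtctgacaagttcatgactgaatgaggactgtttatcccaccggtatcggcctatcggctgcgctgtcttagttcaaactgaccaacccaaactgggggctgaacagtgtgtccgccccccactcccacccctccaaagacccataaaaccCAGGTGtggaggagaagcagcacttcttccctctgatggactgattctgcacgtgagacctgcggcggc
Cldn7: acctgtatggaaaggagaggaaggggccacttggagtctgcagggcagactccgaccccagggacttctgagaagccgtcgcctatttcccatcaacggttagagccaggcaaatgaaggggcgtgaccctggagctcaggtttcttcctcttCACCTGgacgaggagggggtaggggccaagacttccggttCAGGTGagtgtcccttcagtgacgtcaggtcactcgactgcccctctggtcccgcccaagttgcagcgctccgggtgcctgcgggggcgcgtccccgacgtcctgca
Rab25: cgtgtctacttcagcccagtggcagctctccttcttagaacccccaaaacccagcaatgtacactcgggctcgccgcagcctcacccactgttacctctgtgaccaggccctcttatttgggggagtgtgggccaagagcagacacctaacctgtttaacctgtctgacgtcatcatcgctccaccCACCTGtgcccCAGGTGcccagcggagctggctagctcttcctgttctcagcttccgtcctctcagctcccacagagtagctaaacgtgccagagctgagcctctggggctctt
Spint2: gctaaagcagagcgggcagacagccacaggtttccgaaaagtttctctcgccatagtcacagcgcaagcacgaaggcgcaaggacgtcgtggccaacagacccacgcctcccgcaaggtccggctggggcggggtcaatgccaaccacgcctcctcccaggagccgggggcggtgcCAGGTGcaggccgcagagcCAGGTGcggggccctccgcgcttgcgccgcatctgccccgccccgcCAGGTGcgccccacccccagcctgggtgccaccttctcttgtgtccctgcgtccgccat
Spint1: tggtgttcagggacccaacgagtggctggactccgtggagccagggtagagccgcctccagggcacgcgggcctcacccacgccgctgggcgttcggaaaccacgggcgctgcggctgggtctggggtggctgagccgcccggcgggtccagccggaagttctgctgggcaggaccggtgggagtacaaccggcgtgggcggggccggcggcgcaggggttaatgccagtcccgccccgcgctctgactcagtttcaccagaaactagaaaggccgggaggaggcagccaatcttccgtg
The windows hold 2, 2, 2, 3 and 0 of these motifs; of the genes not shown, Cldn4 holds 2 and Cldn3 holds 1. In the table of promoters 20.2% of 32851 windows, and 22.6% of 27025 genes, hold at least 1. Of the luminal epithelial list, 12 genes were in the table and 11 held the motif in a window; of the mesenchymal list it was 2 of 9. The motif was chosen after the values had been seen, and among its holders are Krt8 and Krt18, which were not past the range in either tumor. A match of letters is no evidence that a factor binds there.

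Values of the 5 genes in these tumors followed the same split, with and without the motif. Cldn7 read 5.96 in 092T1 against 8.35 to 9.68 in its set, and 6.37 in 168T1 against 8.97 to 11.02. Rab25 read 7.35 against 10.27 to 11.35, and 6.35 against 10.13 to 12.10. Spint2 read 7.13 against 11.92 to 13.04, and 7.89 against 12.10 to 13.10. Spint1 read 7.86 against 9.94 to 11.11, and 7.76 against 9.96 to 11.53. In F1_26T1 and 076T1 these genes read 9.77 and 9.41 (Cldn7), 10.60 and 10.74 (Rab25), 12.69 and 12.83 (Spint2) and 10.40 and 10.51 (Spint1), inside the range of the other tumors except for Cldn7 in F1_26T1, which lay above it.

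Mesenchymal genes were high in the same pair. The median difference of the 13 genes was 2.69 in 092T1 and 2.30 in 168T1, against 0.06 in F1_26T1 and -0.04 in 076T1, and the other tumors ran from -0.34 to 1.45 and from -0.64 to 1.87. In 092T1 all 13 lay above every other narrow-set tumor and 10 of them were past the range; in 168T1 it was 5 that were past the range. Zeb1, a repressor of epithelial genes, read 10.58 in 092T1 and 10.38 in 168T1, where the other tumors ended at 9.04 and 9.80. Twist1 read 9.36 and 10.71 against highest values of 7.50 and 8.99. Cdh2, which encodes N-cadherin, read 9.39 in 168T1 against 5.53 to 9.30, and 7.88 in 092T1 against 5.75 to 6.67. Glands, which hold stroma, had Zeb1 at 7.96 to 11.27, so that both tumors lay within the gland range for this gene and above it for Twist1 (7.53 to 8.16). In bulk tissue, fewer epithelial cells and less of a transcript per cell cannot be told apart.

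Markers of stroma and macrophages were high beside the mesenchymal genes in 092T1 and within the range of the other tumors in 168T1. Of 14 fibroblast and matrix genes, 7 were past the range higher in 092T1 and 0 in 168T1, with a median difference of 2.07 in 092T1 (other tumors of the narrow set -1.44 to 1.95) and 1.0 in 168T1 (other tumors of the wide set -1.85 to 2.69). Pdgfra, a receptor of fibroblasts, read 13.56 in 092T1, above the 7.15 to 9.89 of its set and the 9.04 to 11.45 of the glands, and 9.28 in 168T1, inside the 6.92 to 11.41 of its set. Of 11 macrophage genes, 6 were past the range higher in 092T1 and 0 in 168T1, with medians of 2.29 and 1.11, where other tumors reached 1.84 and 2.30. The part of such cells in the mesenchymal values was not tested. Of 6 MHC class II genes, which present antigen, 3 were past the range lower in 092T1 (median difference -1.71, other narrow-set tumors -0.63 to 1.15) and 0 in 168T1. Of the 10 skeletal muscle genes the median difference was 1.40 in 092T1 and 1.62 in 168T1, within the range of the other tumors.

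Of the ERBB family, 1 of the 3 receptors tested and 1 of the 10 ligands were past the range in each of 092T1 and 168T1, and none in F1_26T1 or 076T1; the median difference of the ligands was -0.12 and 0.18 in the first pair, inside the range of the other tumors. Erbb3, the neuregulin receptor that pairs with ERBB2, read 6.22 in 092T1 and 7.01 in 168T1 against 11.34 to 11.93 and 10.65 to 12.26, while F1_26T1 and 076T1 read 11.12 and 11.77. Egfr lay within the range of its set in all 4 tumors (9.13, 10.35, 9.29 and 8.85 in 092T1, 168T1, F1_26T1 and 076T1). Ereg, which encodes the EGFR ligand epiregulin, read 10.08 in 092T1 against 5.62 to 6.20 and 9.63 in 168T1 against 5.18 to 6.68, and 6.19 and 5.86 in the others. Of 17 other receptor tyrosine kinases, 5 were past the range higher and 1 lower in 092T1, and 2 higher and 1 lower in 168T1, whose median difference of 0.38 was inside the -0.51 to 0.57 of its set. The 2 that were higher in both were Axl and Igf1r. Axl read 11.48 and 12.13 against highest values of 9.81 and 11.14, and Igf1r 10.30 and 10.91 against 8.75 and 9.84. Kit, a receptor of luminal progenitors, was the lower one in both, with 8.00 and 7.80 against lowest values of 11.61 and 11.52.

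Of 8 luminal progenitor genes, 3 were past the range lower in 092T1 and 4 in 168T1, where 1, the integrin gene Itga2, was past it higher (11.03 against at most 9.17). Itga2 and Lif lay above all other tumors of the set in both. Of 10 milk and secretion genes 1 was past the range lower in 092T1 and 2 in 168T1. The median difference of the progenitor list was -1.24 in 092T1 and -2.21 in 168T1, against 0.25 and -0.01 in F1_26T1 and 076T1. Elf5, the transcription factor of alveolar progenitors, read 6.42 and 5.71 against lowest values of 10.52 and 10.13. The milk protein gene Csn3 read 7.23 and 7.17 against 12.76 and 11.30, and Lcn2, an iron-binding secreted protein, 8.06 and 8.93 against 13.41 and 13.52. Among 11 genes of fatty acid synthesis 3 were past the range lower in 092T1 and 4 in 168T1, among them in both Srebf1, a regulator of lipid synthesis (8.64 and 9.74 against lowest values of 10.43 and 10.90).

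The genes farthest above the range were shared by the pair only in part. Ptgs2, the inducible cyclooxygenase, was high in both at 13.19 and 12.59 against highest values of 9.86 and 11.40, as was Sema3a, an axon guidance ligand, at 12.24 and 10.67 against 6.07 and 7.56. Brinp3 read 11.78 and 11.22 against 6.54 and 8.09. The deiodinase gene Dio2 read 12.94 in 092T1 (set 6.79 to 7.77), where 168T1 read 7.55, inside its set. In 168T1 the granzyme genes Gzmd and Gzmf, proteases of cytotoxic cells, read 10.64 and 10.60 against highest values of 7.18 and 5.81, and the mast cell protease Mcpt2 read 9.59 against 4.53. In 092T1 Gzmd and Gzmf read 6.19 and 7.08, above the highest of its set (5.50 and 6.30) but less than 4-fold from the median, and Mcpt2 4.96, inside it. The transcription factor Sox2 read 11.002 in 168T1 against 8.12. The median difference of 6 mast cell genes in 168T1 was 2.15, above the -0.34 to 1.07 of the other wide-set tumors, with 1 of the 6 past the range; its part in the granzyme values was not tested.

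**Figure D4:**
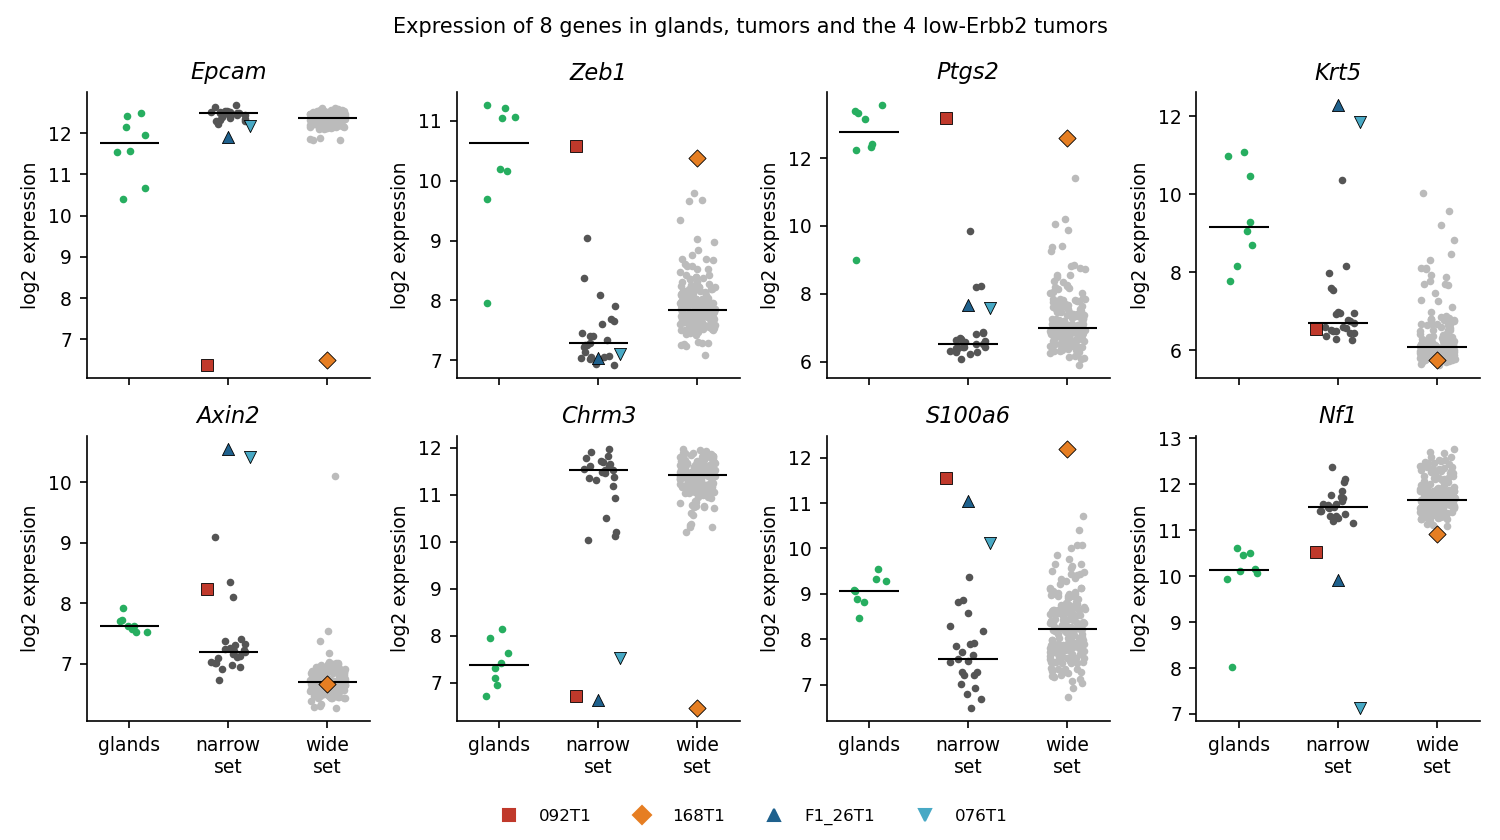
Log2 values of 8 genes in glands, narrow-set and wide-set tumors, with bars at the group medians and the 4 low tumors marked. Epcam is low and Zeb1 and Ptgs2 are high in 092T1 and 168T1, Krt5 and Axin2 are high in F1_26T1 and 076T1, and Chrm3, S100a6 and Nf1 leave the range of the other tumors in all 4.

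The other pair, F1_26T1 and 076T1, kept luminal genes and had high values of basal and squamous keratin genes. Of 15 squamous genes 7 were past the range higher in each of the 2 and none in 092T1 or 168T1, and the median difference was 1.78 in F1_26T1 and 2.19 in 076T1, against -0.09 and 0.01. The other narrow-set tumors ran from -0.26 to 0.71, while single wide-set tumors reached 2.29. Krt5, the keratin of the basal layer, read 12.29 in F1_26T1 and 11.85 in 076T1 against 6.26 to 10.36 (median 6.69) in the set, and 6.55 in 092T1 and 5.74 in 168T1. Krt14, its partner keratin, read 12.01 and 11.09 against 6.51 to 9.91, and Krt6a, a keratin of activated squamous epithelium, 10.66 and 9.76 against 6.64 to 8.68. Dsg3, a desmosomal cadherin, read 10.90 and 9.13 against 5.73 to 8.55. Trp63, the transcription factor of basal and squamous cells, read 8.38 and 8.47, above the 6.86 to 7.70 of the set but less than 4-fold from its median. Of 11 basal and myoepithelial genes, 3 were past the range higher in each of the pair. The median difference of that list was 0.06 in F1_26T1, inside the -0.29 to 0.32 of the other narrow-set tumors. In 076T1 it was 0.56, above that range. Not all of the list was high, since the smooth muscle genes Acta2 and Myh11 of myoepithelial cells lay inside the set. Acta2 read 9.84 and 10.57 within 7.86 to 11.57, and Myh11 7.17 and 6.93 within 6.69 to 8.33.

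Targets of the Wnt pathway were high in the same 2 tumors. The median difference of 10 measured targets was 1.20 in F1_26T1 and 1.17 in 076T1, above the -0.32 to 0.42 of the other narrow-set tumors and the -0.25 to 1.0 of the wide-set ones, and 0.23 in 092T1 and 0.03 in 168T1. Axin2 (chr11:108917828-108950783), a feedback inhibitor of Wnt signaling, read 10.56 and 10.42 against 6.74 to 9.10 (median 7.20), and 8.23 in 092T1 and 6.67 in 168T1, both inside their sets. Nkd2, another antagonist, read 10.06 and 9.65 against 6.53 to 9.34. Wif1, a secreted Wnt inhibitor, read 9.61 and 9.08 against 6.66 to 8.61.

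Each of these 2 tumors also had features of its own. In F1_26T1, 2 of the 10 milk and secretion genes were past the range higher, and the median difference of that list, 0.93, was inside the -1.23 to 1.07 of the other narrow-set tumors. The whey protein gene Wap read 13.03 against 6.93 to 11.81, Glycam1 14.13 against 6.37 to 13.50, and the keratin gene Krt19, of the luminal list, read 13.12 against 6.03 to 11.30. In the glands Wap ran from 7.61 to 13.07 and Glycam1 from 12.31 to 13.93. In 076T1, Wap and Glycam1 read 11.66 and 11.96, inside the set. F1_26T1 was also low in genes that ERK signaling induces, with Etv1 at 6.51 (set 8.95 to 12.28), Etv5 at 6.91 (9.54 to 11.45) and Dusp6 at 8.40 (10.69 to 12.72), all 3 being within the glands' ranges or at their edge. Of 15 genes of ERK output, 3 were past the range lower in F1_26T1, 2 in 092T1, 1 in 168T1 and 0 in 076T1. Low Etv5 was not particular to F1_26T1, since it lay below every other tumor of the set in all 4 low tumors. In 076T1, Ptprz1, a receptor phosphatase, read 10.96 against 4.72 to 8.47, and the neuronal gene Bex1 9.63 against 4.16 to 6.87.

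Nf1 (chr11:79339590-79581609), which encodes neurofibromin, an inhibitor of RAS, was low in 076T1. It read 7.13 there against 11.16 to 12.37 (median 11.52) in the other narrow-set tumors and 8.01 to 10.61 in the glands. The other low tumors lay less far below their sets, with 10.53 in 092T1, 9.93 in F1_26T1 and 10.91 in 168T1, where the lowest other wide-set tumor read 11.10. No low tumor overlapped the other tumors of its set for this gene.

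Across the 3 narrow-set low tumors, limma compared the group with the 23 other narrow-set tumors. At an adjusted p under 0.05 and a difference of at least 2-fold, 396 of 35555 probe sets were higher (1.11%) and 380 lower (1.07%). Because the tumors had been picked on Erbb2, these are associations with that split. Leaving out 092T1, F1_26T1 or 076T1 in turn gave 359 to 499 higher and 176 to 435 lower, the 176 being without 092T1, and 342 of the 776 calls were kept without it. With 076T1 as a high tumor, as under a threshold of 10, 478 were kept, and among F1BX tumors alone 445.

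Several genes changed in this comparison and kept their call whichever of the 3 tumors was left out. Chrm3, a muscarinic acetylcholine receptor, read 6.72 in 092T1, 6.62 in F1_26T1 and 7.52 in 076T1 against 10.03 to 11.98 (median 11.53), a fall of log2 -4.36 (SE 0.32, adjusted p = 7.97e-11), and 6.46 in 168T1 against 10.21 to 11.97. Papln, a matrix protein, read 7.06, 7.38 and 7.36 against 9.003 to 12.74, log2 -4.27 (SE 0.47, adjusted p = 3.2e-07), and 7.20 in 168T1 against 9.72 to 12.89. These 2 genes, like Cdh19 below, were lower than every other tumor of the set in all 4. The tetraspanin Tspan8 read 6.01, 7.42 and 6.16 against 8.49 to 12.99, log2 -5.65 (SE 0.62, adjusted p = 3.29e-07), but 12.33 in 168T1, within its set. Socs2, an inhibitor of cytokine signaling, fell by 3.73 on the log2 scale (SE 0.40, adjusted p = 2.83e-07), with 7.79, 7.87 and 10.46 against 11.27 to 12.96. Cdh19, a cadherin, fell by 4.13 (SE 0.57, adjusted p = 1.45e-05), with all 3 at 4.42 to 4.49 against 4.73 to 10.09. In 168T1 it read 4.17 against 4.96 to 10.98. In the glands these genes were low too: Chrm3 ran from 6.71 to 8.15, Papln from 7.30 to 9.11 and Cdh19 from 4.91 to 6.29. The low tumors did not pass the test against the glands for Chrm3 (log2 -0.45, adjusted p = 0.36), Papln (-0.90, 0.19) or Tspan8 (-1.22, 0.19).

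Other genes rose in the comparison and kept their call in the same way. S100a6, a calcium-binding protein, was past the range in each of the 4 tumors: 11.56, 11.05 and 10.11 in 092T1, F1_26T1 and 076T1 against 6.48 to 9.38, and 12.20 in 168T1 against 6.73 to 10.71. It rose by log2 3.23 (SE 0.39, adjusted p = 2.09e-06) in the narrow-set comparison and also lay above the glands (8.48 to 9.55), where the difference was 1.85 (adjusted p = 0.0017). The gap junction gene Gja1 read 12.81, 12.39 and 12.10 against 7.04 to 11.52, log2 3.93 (SE 0.63, adjusted p = 0.000138), and 11.18 in 168T1, inside its set. The collagenase gene Mmp13 read 12.20, 9.88 and 9.40 against 6.12 to 7.94, log2 3.64 (SE 0.45, adjusted p = 2.55e-06). In 168T1 Mmp13 read 11.57, inside its set (6.04 to 12.50), and the glands ran from 7.23 to 10.03. Apcdd1, a Wnt inhibitor, read 9.62, 9.34 and 9.74 against 7.19 to 8.37, log2 1.91 (SE 0.17, adjusted p = 5.26e-09), and 10.11 in 168T1 against 6.58 to 8.73. For Apcdd1 and S100a6 no low tumor overlapped the others of its set. Axin2 rose by 2.42 (SE 0.33, adjusted p = 9.67e-06) and Nf1 fell by 2.38 on the log2 scale (SE 0.39, adjusted p = 0.000165); without 076T1 the difference of Nf1 was -1.34 (adjusted p = 0.0184).

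The list counts changed with the tumor that was left out. Leaving 1 out also makes the group smaller, so a lost call need not mean that this tumor carried it. Of 17 luminal epithelial genes 0 rose and 3 fell, and without 092T1 none fell. Epcam was among the 3, with log2 -2.30 (adjusted p = 0.0073), and -0.42 (adjusted p = 0.598) without 092T1. Of 13 mesenchymal genes 4 rose and none without 092T1. Of 3 ERBB receptors tested, Erbb3 and Erbb4 fell (log2 -1.87, adjusted p = 0.0295, and -1.67, adjusted p = 0.0434), and neither without 092T1; Erbb4 lost its call whichever tumor was left out. Of 10 ERBB ligands Hbegf, Epgn and Ereg rose, with 1 call left without 092T1. Of 15 squamous genes 8 rose, 10 without 092T1, 2 without F1_26T1 and 3 without 076T1. Of 11 basal genes 3 rose, 4 without 092T1 and none without F1_26T1 or without 076T1. For Krt5 the difference was log2 3.24 (adjusted p = 0.0064) with all 3, 2.21 (adjusted p = 0.188) without F1_26T1 and 2.43 (adjusted p = 0.122) without 076T1. Of 10 Wnt targets 3 rose, 5 without 092T1, 2 without F1_26T1 and 3 without 076T1. The median difference over each list was -0.74 for luminal epithelium, 0.80 for mesenchymal, 1.18 for squamous and 0.88 for Wnt genes, beside -0.01 over all probe sets.

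Genes downstream of the receptor were mixed. Of 15 genes of ERK output 3 rose (Dusp4, Egr1 and Fosl1) and 4 fell (Etv1, Etv5, Dusp6 and Spry2), and without F1_26T1 the counts were 2 and 1; without 092T1 or 076T1 a single gene rose. Etv5, an ETS factor, kept its call with log2 -2.61 (SE 0.31, adjusted p = 9.59e-07), reading 8.40, 6.91 and 9.21 against 9.54 to 11.45, and 9.41 in 168T1 against 10.33 to 11.998. The insulin receptor substrate Irs1 was the 1 of 11 AKT, mTOR and ERK components that changed, by log2 -2.44 (SE 0.33, adjusted p = 9.22e-06); a dimmer probe set of the same gene did not. Of 14 neighbours of Erbb2 on chromosome 11 none changed (median log2 -0.19). Grb7, the adaptor gene beside Erbb2, read 7.37, 8.78 and 9.87 in 092T1, F1_26T1 and 076T1 (set 8.63 to 9.60), and 6.03 in 168T1 against 8.60 to 10.40. Of 14 oncogenes known as MMTV insertion sites none changed.

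**Figure D5:**
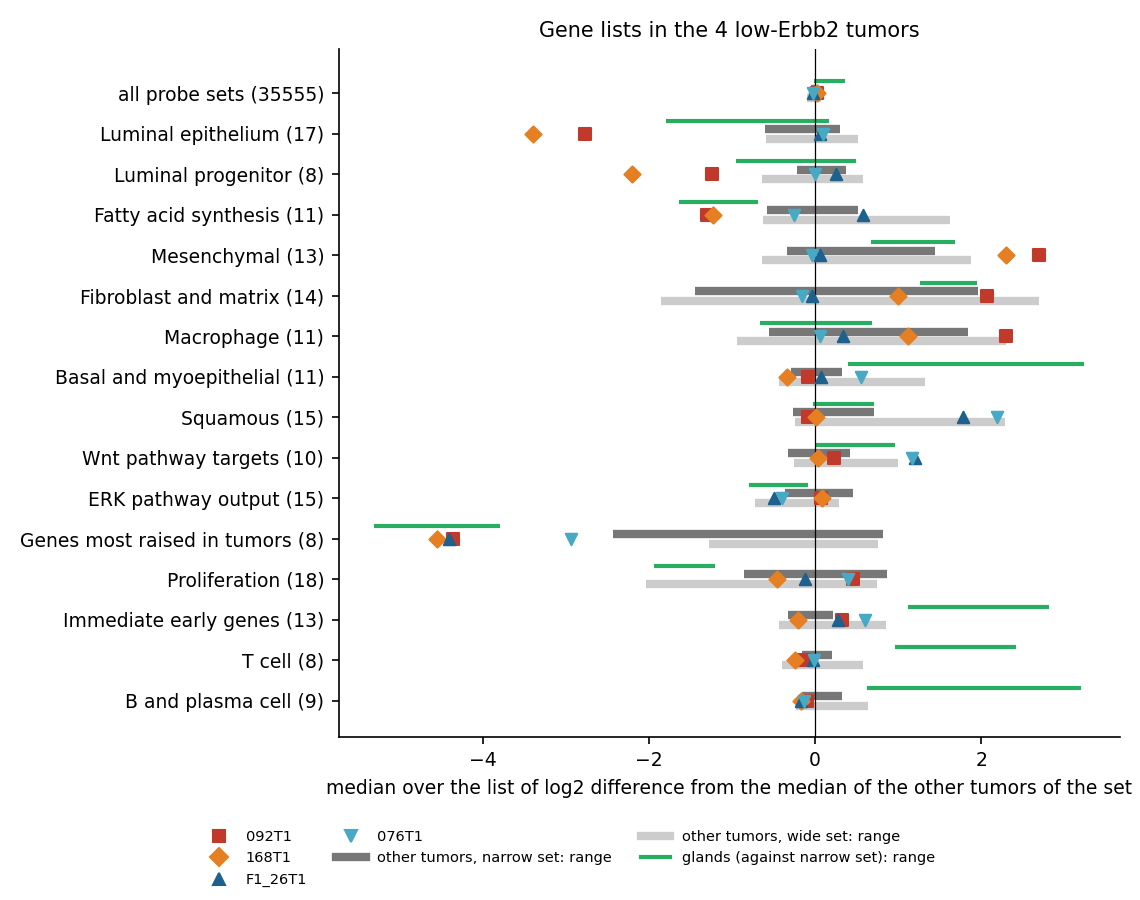
Median difference of each gene list from the set median, in log2, for the 4 low tumors, with the range of the other tumors in grey and that of the glands in green. Luminal epithelium lies at -2.77 and -3.39 in 092T1 and 168T1 and near 0 in the other 2, while squamous genes lie at 1.78 and 2.19 in F1_26T1 and 076T1.

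The low tumors had Erbb2 within the joint range of wild type and transgenic glands but were not glands. Against the 8 glands, 2224 probe sets were higher (6.26%) and 1203 lower (3.38%) in the 3 narrow-set low tumors, and 1779 and 1419 without the gland that stood apart. In the other narrow-set tumors 2774 were higher (7.8%) and 1857 lower (5.22%). Of 18 proliferation genes 16 rose in the low tumors against the glands, also without the gland apart, and none passed the test against the other tumors; the marker of cycling cells Mki67 read 10.08, 10.02 and 10.91, and 7.76 to 8.88 in glands. Immune cell genes separated glands from low tumors: 7 of 8 T cell genes, 8 of 9 B and plasma cell genes and 4 of 6 lymph node genes fell against the glands, and none of these changed against the other tumors. Of 13 immediate early genes 12 fell against the glands, and 5 rose against the other tumors (1 without 092T1). The part of lymph node tissue and of tissue handling in the gland comparison was not tested.

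A position between glands, set to 0, and the other tumors, set to 1, was taken as the median over the 4631 probe sets that separated them. It was 0.66 for 092T1, 0.85 for F1_26T1 and 0.94 for 076T1, and 0.86 to 1.16 for the other narrow-set tumors. 092T1 lay below all of them, F1_26T1 just below the lowest and 076T1 among them. Without the gland apart the values were 0.63, 0.82 and 0.91. For the 2774 probe sets higher in tumors they were 0.61, 0.84 and 0.96, and for the 1857 lower in tumors 0.78, 0.86 and 0.90. The 4631 probe sets were picked by the difference between these same other tumors and the glands, and not with the low tumors. The position is therefore a description, and a gap as small as that of F1_26T1 (0.85 against 0.86) is no evidence of a shift. The 8 genes most raised in tumors against glands were chosen on these arrays and are not independent evidence of direction. Their median difference from the set was -4.35 in 092T1, -4.41 in F1_26T1 and -2.94 in 076T1. Glands were at -5.30 to -3.79 and the other narrow-set tumors at -2.43 to 0.82. By this median 092T1 and F1_26T1 lay within the gland range and 076T1 between glands and other tumors. In 168T1 it was -4.55, taken from the wide set (other tumors -1.28 to 0.75) and so not on the scale of the glands. Single genes could differ from the median: Tspan8, 1 of the 8, read 12.33 in 168T1, within its set.

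The calls were then looked up in arrays that the comparison had not used. Of the 380 probe sets lower in the narrow-set low tumors, 193 (50.8%) were past the range lower in 168T1 and 0 higher. Of the 396 higher ones, 89 (22.5%) were past the range higher and 0 lower. Among the 187 other wide-set tumors, where Erbb2 was 11.73 to 12.86, the level of each gene was regressed on that of Erbb2 with the mouse as a random block, and 2654 probe sets had a positive slope (7.46%) and 2192 a negative one (6.17%). Of the 380 lower calls 149 (39.2%) had a positive slope and 1 a negative one; of the 396 higher calls 38.1% had a negative slope and 4 a positive one. With 1 array per mouse (130 arrays) the shares fell to 8.42% and 5.05%, beside 1.99% and 1.5% of all probe sets.

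Within these 187 tumors the slopes of whole lists could also be counted, beside 7.46% positive and 6.17% negative over all probe sets. The list counts and gene slopes given here are from the fit to all 187 arrays. With 1 array per mouse, 1241 slopes over all probe sets passed in place of 4846, and the lists were not recounted. Of 13 mesenchymal genes 11 had a negative slope on Erbb2, as did 11 of 14 fibroblast genes and 6 of 11 macrophage genes, and 6 of 17 luminal epithelial genes had a positive one. Negative slopes were also found for 11 of 18 proliferation genes, 6 of 10 endothelial genes and 6 of 11 basal genes, the basal list having 1 positive slope as well. Epcam had a slope of 0.32 log2 per log2 unit of Erbb2 (SE 0.05, adjusted p = 8.1e-07) and Zeb1 one of -0.71 (SE 0.16, adjusted p = 0.00066). None of the 15 squamous genes passed the test, and of the basal genes Krt5 did not, at -0.35 (SE 0.28, adjusted p = 0.44). Nf1 had a positive slope of 0.50 (SE 0.13, adjusted p = 0.0062). Because stromal lists moved with Erbb2 in these tumors, the share of stroma and the level per tumor cell cannot be told apart in the slopes.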

How the data were processed

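The authors extracted total RNA with Trizol, hybridised it to Affymetrix mouse arrays and deposited log2 expression values per probe set, made with RMA (per the labels). Of 35556 probe sets, 21789 have 1 gene symbol, 1621 several and 12146 none, for 19938 genes named here. Coordinates and promoter windows were taken from RefSeq tables of GRCm38.p6. Groups came from the labels, except the low tumors, which the rule on Erbb2 picked; the array sets were split at an interquartile range of 2.8. Arrays give no counts, so their number limits the precision.

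limma 3.58.1 (lmFit, eBayes; R 4.3.3, statmod 1.5.0) was fitted to the narrow-set arrays as 3 groups, with calls at a Benjamini-Hochberg adjusted p under 0.05 over 35555 probe sets and at least 2-fold, and to the wide-set tumors with Erbb2 as covariate and mouse as random block (duplicateCorrelation, within-mouse correlation 0.089), called at the adjusted p alone. Of these steps, only the limma comparison of low with other narrow-set tumors was tested on simulated data. Other steps used Python 3.11.15, pandas 2.3.3 and numpy 2.4.6. The tumors, and the 42 lists with 445 members (32 without a probe set), were chosen with earlier results of these data known. Genes were named if they were Erbb2 or Tc2n, among the 12 with the largest called change in each direction, among the 8 farthest past the range in each direction in a low tumor, or members of a list; for a gene with several probe sets, the brightest was used. In the narrow set, p-values rest on 1 estimate of the spread within the 3 groups, the gland that stood apart included. Each narrow-set tumor came from its own mouse. The p-values of the slopes rest on the wide-set tumors, where some mice gave several arrays. Alternatives were a stricter threshold, other samples, leaving out each low tumor, a filter on dim probe sets (mean of at least 6), quantile normalization, the F1BX tumors alone, a threshold of 10 on Erbb2, 1 array per mouse and the genetic background. Leaving out the gland that stood apart, and the repeat arrays from the counts of single tumors, was chosen after seeing the data.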

Additional observations from a re-analysis of the deposited data

Results flagged for a closer look

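The 12 genes with the largest called changes in each direction were looked over for an array far from the rest of its group. This was done in the 8 glands and in the 4 low tumors (48 gene and group pairs), and 8 pairs had one. Chance gives about 1 in 20 for a pair, but the pairs share arrays, so no excess was tested for these 8. In 5 of these the array was the gland that stood apart, FVB MMTV-ErbB2 replicate 3: it read 9.69 for Gja1 (the other 7 glands 11.60 to 12.27), 11.88 for Mt2 (12.75 to 13.43), 7.79 for Tchh (6.10 to 6.87), 9.002 for Ptgs2 (12.22 to 13.57) and 7.64 for Socs2 (9.52 to 10.69). In the other 3 it was a low tumor, by its difference from the median of its own set: -4.01 for Chrm3 in 076T1 (the other low tumors -4.95 to -4.80), -2.30 for Chn2 in 168T1 (-4.30 to -4.22) and -5.49 for Cdh19 in 168T1 (-4.09 to -4.02).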

How the results depend on the processing

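No paired analysis was possible because the groups compared come from different mice and their replicate numbers only name arrays. No result changed direction. The 776 calls of the narrow-set comparison (396 higher, 380 lower) became 375 (189 and 186) at an adjusted p of at most 0.005 and 1327 (626 and 701) over all tumors with 168T1 included; leaving out 1 low tumor gave 535 to 934 in all, 359 to 499 higher and 176 to 435 lower. The 1203 probe sets lower than in the glands became 778 in a fit of the 2 groups alone. The 4846 slopes became 1241 with 1 array per mouse (707 positive, 534 negative). With 2-fold in place of 4-fold, the past-range counts (higher and lower) were 1292 and 1200 in 092T1, 1240 and 1228 in 168T1, 662 and 376 in F1_26T1 and 599 and 251 in 076T1. The cause of these shifts, beyond the changed threshold or number of arrays, was not tested. For the 24 genes with the largest called changes, 231 recomputed values kept their direction and call and 35 kept their direction and lost the call, among them Krt5 in 5 alternatives, Ptprz1 in 4 and Ptgs2 in 2. Of the 776 calls, 734 remained with dim probe sets left out and 718 after quantile normalization. The group of 3 joins tumors that differ from each other, each low tumor by itself has no test, and the 23 control tumors set how wide the range is.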
